A study of Mus musculus with 12 samples.

Results

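The RNA-seq data of 8 libraries of Myc-CaP cells were used to ask, gene by gene, whether the change made by a low dose of interferon γ (IFNγ) was the same in cells that also received oxaliplatin (Oxali) as in cells that did not. Myc-CaP is an established prostate cancer line from a Myc-driven mouse of the FVB/NJ strain, and Oxali is a platinum drug that crosslinks DNA. The groups, of 2 libraries each, were untreated cells (Ctrl), cells given IFNγ at 200 pg (IFN200; the label states no volume), cells given Oxali at 2 µM (Oxali), and cells given both (Combo200), all harvested at 48 h. The interaction of a gene was defined on the log2 scale as the change from Oxali to Combo200 minus the change from Ctrl to IFN200. A positive value means that the fold change made by IFNγ was larger with Oxali present. Of the 55216 genes in the table, 13177 passed the filter on low counts and were tested. At an adjusted p under 0.05 the interaction was called for 92 genes, which is 0.698% of those tested. Of these, 74 (0.562%) were higher and 18 (0.137%) were lower than expected from multiplied fold changes. Before adjustment 1304 genes had a p under 0.05, and the median interaction over all genes tested was 0.01.

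IFNγ binds a receptor made of Ifngr1 and Ifngr2, which activates the kinases Jak1 and Jak2. Signalling from the kinases acts through GAS elements in DNA and switches on first targets such as Irf1. Irf1 is a transcription factor that binds ISRE-type elements and carries the response to later targets, including the genes of class I antigen presentation and the large GTPases of cell-autonomous defence.

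The titles of the samples defined the groups. A further label, the agent, contradicts them wherever 1 treatment was given alone: those titled IFN200 carry the agent Oxali, and those titled Oxali carry IFNγ at 2000 pg. As a check, the mean log2 change from Ctrl of 18 p53 target genes, which DNA damage is known to raise, was 0.02 in both libraries titled IFN200, 0.42 and 0.39 in those titled Oxali, and 0.40 in both Combo200 libraries. By the titles, Oxali against Ctrl called 10 of the 18 higher and 4 lower, with a median change of 0.24. The upper quartile of that change over all genes was 0.46, so the check does not settle which label is right. Every direction given here rests on the titles. Read counts per library ran from 18749975 to 24971915, which puts 3 counts at 0.116 to 0.167 CPM (read counts divided by the TMM-scaled library size, on edgeR's CPM scale). The labels do not say that the libraries of a pair came from separate cultures, so the p-values measure the spread between these libraries, which may be technical. The smallest two-sided p of an exact permutation test at this group size is 0.333, so all calls rest on a spread shared across genes and groups. Of the identity markers, Myc, Krt8 and Krt19 were detected, Epcam had no count in any library, and Krt18 and Cdh1 lay near 0. The summed level of 6 T cell markers was at most 1.82 CPM and that of 8 myeloid markers at most 2.37 CPM, with Cd3d and Cd8a at 0 in the 8 libraries. The 7 fibroblast and endothelial markers summed to 16.7 and 12.9 CPM in Ctrl and 15.8 and 14.5 in IFN200. Their sums were 26.2 and 27.1 CPM in Oxali and 23.8 and 25.5 in Combo200, with 6 of the 7 at 3 counts or fewer in each library. Oxali against Ctrl called higher the 1 T cell marker tested, 1 of 2 myeloid markers and the 1 fibroblast and endothelial marker. It called 34.8% of all genes higher. The 7 heart and skeletal muscle markers summed to 9.14 CPM in IFN200 replicate 1 and 1.10 CPM in replicate 2; their part in the results was not tested.

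Promoters of 5 genes with a called interaction that are known to respond to IFNγ are shown first, chosen because they hold a motif match and differ in which. The stretches below cover the 250 bases before the start site in RefSeq's annotation of GRCm38.p6, written 5′ to 3′ on the gene's strand. Capitals mark matches on either strand to TTCNNNGAA (the GAS form), 2 GAAA repeats separated by 2 bases of any kind (the ISRE core) or the NF-κB consensus.
Irf1, chr11:53769764-53770013, plus strand: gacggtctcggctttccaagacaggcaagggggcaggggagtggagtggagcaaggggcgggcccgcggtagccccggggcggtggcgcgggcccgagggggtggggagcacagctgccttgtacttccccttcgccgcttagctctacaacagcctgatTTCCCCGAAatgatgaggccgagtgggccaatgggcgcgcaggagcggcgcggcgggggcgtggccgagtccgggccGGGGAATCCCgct
Igtp, chr11:58199306-58199555, plus strand: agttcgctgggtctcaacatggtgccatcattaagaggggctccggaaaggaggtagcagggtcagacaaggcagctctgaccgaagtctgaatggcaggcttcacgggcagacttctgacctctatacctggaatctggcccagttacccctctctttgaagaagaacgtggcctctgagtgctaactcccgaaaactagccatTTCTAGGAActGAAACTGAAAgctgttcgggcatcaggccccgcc
Gbp2, chr3:142620413-142620662, plus strand: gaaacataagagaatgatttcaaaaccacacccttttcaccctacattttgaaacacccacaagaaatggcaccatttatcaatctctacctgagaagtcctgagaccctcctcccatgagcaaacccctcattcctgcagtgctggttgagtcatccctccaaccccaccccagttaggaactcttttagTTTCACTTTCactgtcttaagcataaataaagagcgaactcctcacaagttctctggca
Irgm1, chr11:48871421-48871670, minus strand: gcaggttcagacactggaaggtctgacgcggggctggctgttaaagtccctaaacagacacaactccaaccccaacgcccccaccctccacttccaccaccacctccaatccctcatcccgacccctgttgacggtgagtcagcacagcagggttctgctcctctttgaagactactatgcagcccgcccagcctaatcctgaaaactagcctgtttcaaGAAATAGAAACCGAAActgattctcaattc
H2-K1, chr17:34000348-34000597, minus strand: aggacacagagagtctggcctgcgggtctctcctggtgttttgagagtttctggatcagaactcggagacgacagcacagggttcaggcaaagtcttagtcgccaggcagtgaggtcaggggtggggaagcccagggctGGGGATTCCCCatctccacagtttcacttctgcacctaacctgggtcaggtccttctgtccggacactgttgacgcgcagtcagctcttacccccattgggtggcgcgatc
Irf1 held a GAS match beginning 90 bases before the start and an NF-κB match at 13. Igtp, an immunity related GTPase, held a GAS match at 45 bases and an ISRE core at 34. Gbp2 held an ISRE core at 59 bases. Irgm1 held a pair of overlapping ISRE cores, and H2-K1 held overlapping NF-κB matches and no exact match to either other motif. Near matches were not marked. Several start sites are listed for some genes, and the first listed is printed; the other listed Irf1 start had no match. The 250 bases before the starts of Tap1, Tapbp, Psmb10, Psme2 and Irf9 held none of these motifs. In windows of 300 bases, which add 50 bases after the start, the ISRE core was found in 11 of the 26 listed interferon, immune and stress genes that were called higher and had a promoter in the table (42.3%), against 3.99% of the 27025 genes with a promoter and 3.63% of the 9596 of these that were tested. The GAS form was found in 7 of these 26 genes (26.9%), in 9.55% of all and in 8.46% of those tested, and the NF-κB consensus in 8 (30.8%), in 9.55% of all and in 12.3% of those tested. Among the 34 other genes called higher, 3 held the ISRE core (8.82%), 1 held the GAS form (2.94%) and 2 held the NF-κB consensus (5.88%). None of the 9 genes called lower that had a promoter in the table held any of the motifs, which says only that these letters are not in these windows. A match is a description of sequence, not evidence of binding. The 26 genes come from lists of interferon, immune and stress genes, and listed genes that were not called were not compared. Their shares therefore say nothing about the interaction.

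Of the 74 genes called higher, 33 belonged to lists of interferon, immune and stress genes and 41 did not. These groups differed in how the interaction arose. All 33 listed genes were also called higher in Combo200 than in Oxali, a comparison that called 1.83% of all genes, 1.58% higher, and in each of them both Combo200 libraries lay above all 6 other libraries, as was the case for 12.6% of all genes tested. The median log2 change made by IFNγ in the 33 genes was 0.24 without drug and 1.03 with drug, and the median interaction was 0.80 (range 0.36 to 2.74). The interaction is built from these changes, so the medians describe the called genes and test nothing. In the plot of both IFNγ effects these genes lie above the line of equal effect. In bulk RNA a change in every cell and a change in the number of responding or surviving cells cannot be told apart.

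**Figure D1:**
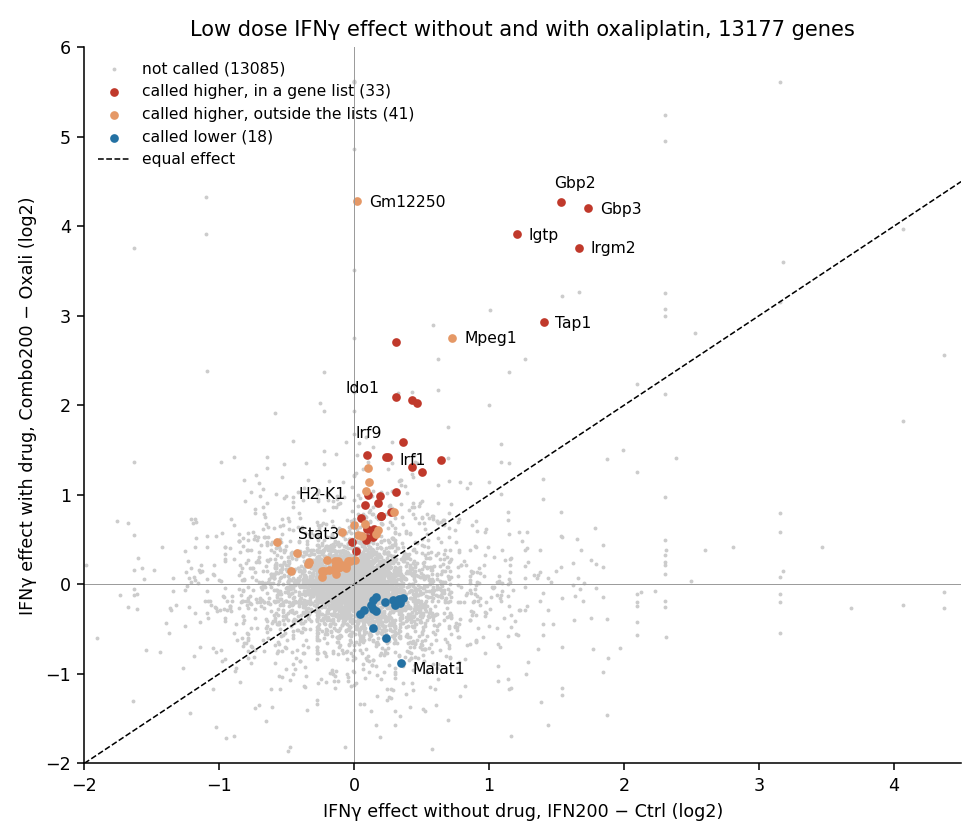
Change made by IFNγ at 200 pg without drug (x axis, IFN200 minus Ctrl) and with drug (y axis, Combo200 minus Oxali), both as log2 fold changes fitted by edgeR. Red points are the 33 listed genes called higher, orange points the 41 other genes called higher, blue points the 18 called lower and grey points the 13085 not called; the dashed line marks equal effects and 29 points lie outside the axes. The red points reach 4.27 on the y axis at Gbp2, whereas the blue points lie below 0 on it.

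Irf1 (chr11:53770014-53778374, GRCm38) was not called with IFNγ alone (log2 0.25, adjusted p = 0.101). Its level was 38.6 and 37.0 CPM in Ctrl, 47.1 and 42.9 in IFN200, 96.3 and 94.1 in Oxali, and 258 and 254 in Combo200. The groups did not overlap, and Combo200 stood apart from the rest. The fold change made by IFNγ was 1.19 without drug and 2.69 with drug, an interaction of 1.17 (SE 0.07, adjusted p = 3.61e-09). If the CPM changes of the single treatments simply added, Combo200 would lie at 102 CPM, and if their folds multiplied, at 113 CPM. The mean was 256 CPM, an excess over addition of 153 CPM (SE 5.66).

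Tap1 (chr17:34187553-34197225), a subunit of the transporter that carries peptides into the endoplasmic reticulum, had the largest interaction of the class I genes called. Its level was 1.00 and 1.17 CPM in Ctrl, 2.65 and 3.14 in IFN200, 4.42 and 5.87 in Oxali, and 39.6 and 38.5 in Combo200. Each single treatment raised it and the groups did not overlap. The interaction was 1.52 (SE 0.29, adjusted p = 0.0133), with addition giving 6.95 CPM and multiplication 13.7 CPM. Without Ctrl replicate 1, Ctrl replicate 2 or IFN200 replicate 1 the call was lost, with an adjusted p of up to 0.277 and a log2 interaction of 1.33 to 1.74 over all alternatives. The annotated spans of Tap1 and Psmb9 overlap, and whether reads were assigned by strand is not stated.

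H2-K1 (chr17:33996017-34000347), a classical class I heavy chain, was at 88.4 and 85.9 CPM in Ctrl, 91.4 and 92.9 in IFN200, 105 and 99.3 in Oxali, and 186 and 193 in Combo200. Each group lay above the one before it without overlap, in small steps up to Oxali and a large one to Combo200. The interaction was 0.81 (SE 0.07, adjusted p = 3.77e-07) and the excess over addition was 82.3 CPM (SE 5.60). Reads of H2-K1 and H2-D1 can fit other genes of the H2 family, so these values are uncertain.

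Stat3 (chr11:100885098-100939540), a transcription factor of the cytokine response, gave the smallest interaction among the 33 genes. Its level was 61.0 and 58.5 CPM in Ctrl, 59.1 and 61.5 in IFN200, 58.8 and 57.9 in Oxali, and 76.2 and 75.2 in Combo200. The Ctrl libraries overlapped both single treatments, and both Combo200 libraries stood above the rest. The interaction was 0.36 (SE 0.06, adjusted p = 0.00718), the excess 16.7 CPM (SE 2.79), and the call was lost without Ctrl replicate 1 or IFN200 replicate 1.

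**Figure D2:**
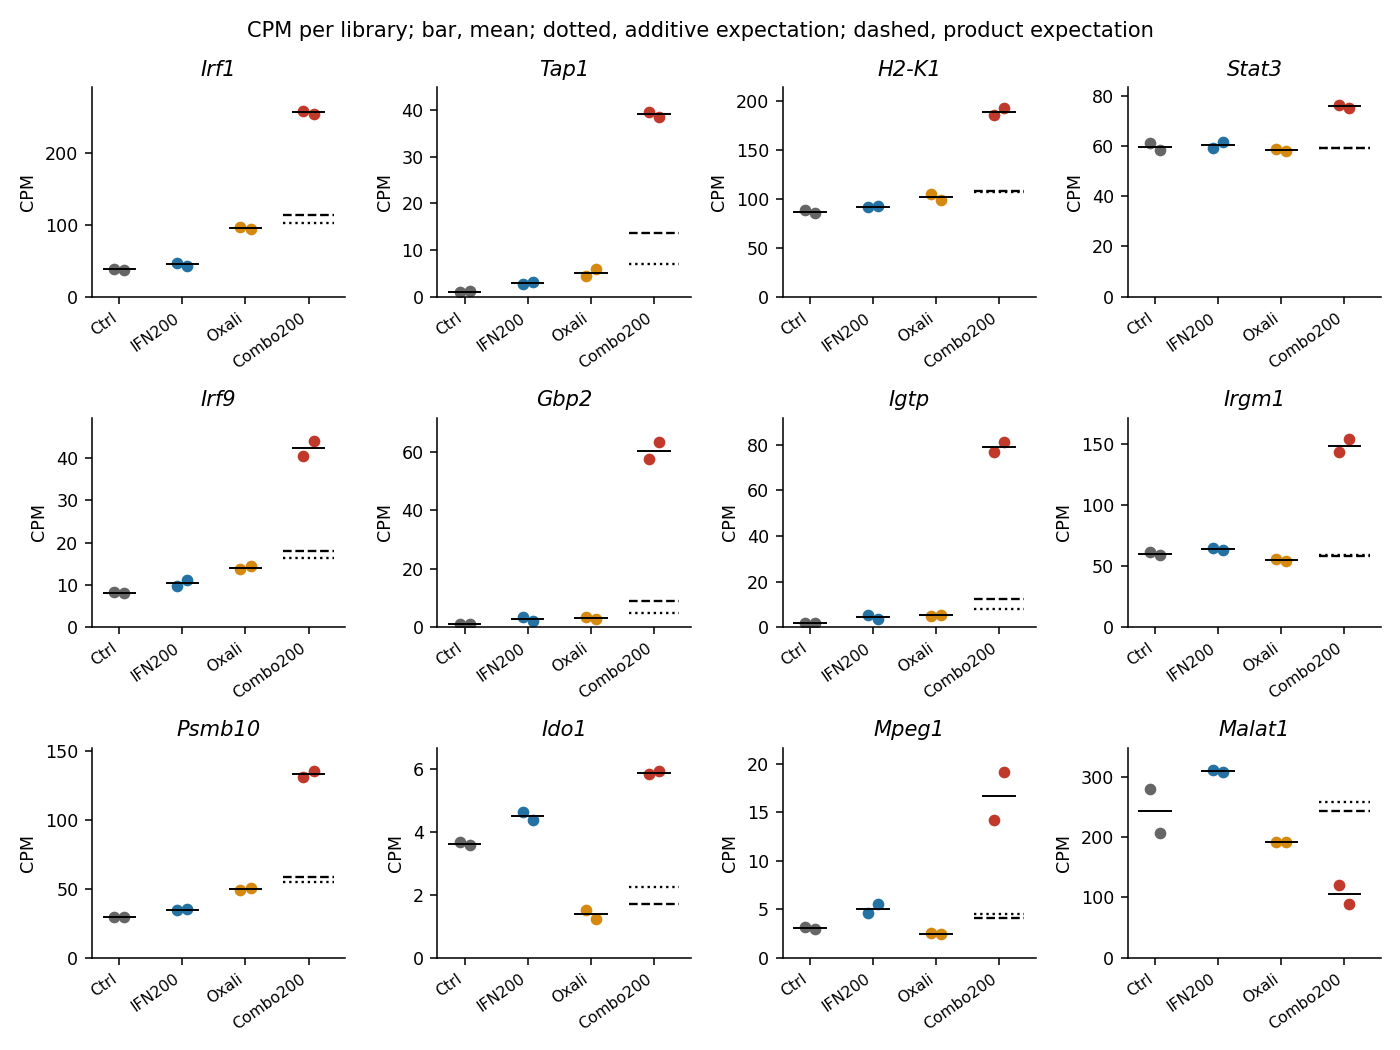
CPM of 12 genes in each of the 8 libraries (points), with the mean of each group of 2 (bar) and, over Combo200, the level expected if changes in CPM added (dotted) or if folds multiplied (dashed). The Combo200 points lie above both expectations in 11 genes and below both in Malat1, and the y axes start at 0.

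The 33 listed genes fell into 3 sets by what the single treatments did. In 9 genes both IFN200 and Oxali were called higher than Ctrl, in comparisons that called 0.114% and 34.8% of all genes higher. Oxali against Ctrl called 67.6% of all genes in either direction. They were Gbp2, Gbp3, Igtp, Irgm2, Tap1, Tap2, Tapbp, Erap1 and Parp14. In 18 genes Oxali alone was called higher and IFN200 was not, among them Irf1, Irf9, B2m, H2-K1, Psmb10 and Csf1. In 6 genes neither single treatment was called higher: Bst2, Ido1, Il18bp, Irgm1, Stat3 and Tgtp1. For these 6 the rise was called only in the presence of both agents.

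Upstream, the receptor and kinase genes were not called. The interaction of Ifngr1 was 0.05 (95% interval -0.11 to 0.20), that of Jak1 0.00 (-0.13 to 0.12) and that of Jak2 -0.07 (-0.18 to 0.04), while Ifngr2, a low gene at 4.44 to 5.28 CPM in the Oxali and Combo200 libraries, had the wider interval of -0.57 to 0.90. Stat2, the partner of Irf9 in the type I interferon factor, missed the threshold on the log2 scale (0.37, adjusted p = 0.0592) and passed on the linear scale with an excess of 13.6 CPM.

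Of 9 interferon regulatory factors tested, Irf1 and Irf9 were called. Irf9 was at 8.29 and 8.01 CPM in Ctrl, 9.77 and 11.1 in IFN200, 13.6 and 14.4 in Oxali, and 40.6 and 44.1 in Combo200, with no overlap between groups and an interaction of 1.24 (SE 0.13). None of the 11 negative regulators of interferon signalling was called on the log2 scale, where 0.698% of all genes were. Socs1, which blocks the kinases of the receptor, was low throughout, at 1.17 and 1.27 CPM in Ctrl, 0.56 and 0.97 in IFN200, 2.35 and 2.48 in Oxali, and 4.45 and 3.90 in Combo200. Its interaction of 1.45 had an adjusted p of 0.0698, and its linear excess of 2.20 CPM (SE 0.45) passed the threshold.

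The guanylate binding proteins and immunity related GTPases, which attack the vacuoles of intracellular pathogens, held the larger fold changes. Of 19 tested, 6 were called on the log2 scale and 16 on the linear scale. Gbp2 was at 1.00 and 0.91 CPM in Ctrl, 3.30 and 2.25 in IFN200, 3.36 and 2.86 in Oxali, and 57.4 and 63.2 in Combo200. The single treatments overlapped each other, and Combo200 lay above multiplication (9.03 CPM) and addition (4.93 CPM), with an interaction of 2.74 (SE 0.34, adjusted p = 0.000131). Igtp was at 2.00 and 1.98 CPM in Ctrl, 5.43 and 3.76 in IFN200, 5.07 and 5.44 in Oxali, and 76.8 and 81.1 in Combo200, which gave an interaction of 2.703 (SE 0.24). The annotated spans of Igtp and Irgm2 overlap, and reads in the shared stretch may have been counted for either or for neither. Gbp3 and Irgm2 gave 2.47 (SE 0.44) and 2.10 (SE 0.28), and Gbp3 lost its call without Ctrl replicate 2; it had 5 and 8 reads in Ctrl.

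Irgm1 had the smallest error of the 6 GTPases called and the highest level before treatment. It was at 61.4 and 58.6 CPM in Ctrl, 65.0 and 63.4 in IFN200, 55.4 and 54.1 in Oxali, and 143 and 154 in Combo200. Oxali lay below Ctrl and Combo200 above every other library, and the interaction was 1.34 (SE 0.07, adjusted p = 3.63e-10). Tgtp1, a GTPase with a near-identical copy in Tgtp2, gave 1.56 (SE 0.14), and its reads may be split between the copies. Tgtp2 itself had no read in Ctrl and 192 and 229 reads in the Combo200 libraries; it was called on the linear scale only, with an excess of 7.98 CPM.

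Class I antigen presentation gave 11 calls among 18 genes on the log2 scale, more than any other list, and 14 on the linear scale, with a median interaction of 0.55. The transporter and loading genes Tap1, Tap2, Tapbp and Tapbpl were all called. Tapbp, the tapasin that bridges the transporter and the heavy chain, was at 89.4 and 85.6 CPM in Ctrl, 108 and 109 in IFN200, 204 and 197 in Oxali, and 409 in both Combo200 libraries. The groups formed 4 separate steps, with an interaction of 0.72 (SE 0.05) and an excess over addition of 188 CPM (SE 8.55). B2m, the light chain, had the largest excess in CPM of all genes called, 325 (SE 34.2), on an interaction of 0.39 (SE 0.05): it was at 735 and 707 CPM in Ctrl, 810 and 779 in IFN200, 892 and 897 in Oxali, and 1274 and 1311 in Combo200. Among the proteasome genes of the list, Psmb10 gave 1.18 (SE 0.08), and the activator subunits Psme1 and Psme2 gave 0.56 (SE 0.06) and 0.73 (SE 0.06). Erap1, which trims peptides in the endoplasmic reticulum, gave 0.54 (SE 0.05). Tap2 gave 0.74 (SE 0.14) but lost its call without Ctrl replicate 2 or Oxali replicate 2, and with a replicate block.

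The 7 class I genes not called on the log2 scale were of 2 kinds. Calr, Canx, Pdia3 and Sec22b, general genes of the endoplasmic reticulum and its traffic, had interactions of -0.05 to 0.05, and the 95% interval of Calr ran from -0.08 to 0.13. Psmb9, Psmb8 and Nlrc5 started at a few reads. Psmb9, an immunoproteasome subunit, was at 0.39 and 0.20 CPM in Ctrl, 2.56 and 2.83 in IFN200, 3.04 and 3.44 in Oxali, and 39.2 and 39.7 in Combo200. On the linear scale its excess over addition was 33.8 CPM (SE 1.13, adjusted p = 5.4e-14), but multiplication already gave 29.5 CPM, and the log2 interaction was 0.42 (95% interval -0.51 to 1.36). Psmb8 was similar, with 22.6 CPM observed, 19.0 CPM by multiplication and 4.27 CPM by addition. Nlrc5, the transactivator of class I genes, had 2 and 0 reads in Ctrl, 16 and 9 in IFN200, 3 and 2 in Oxali, and 223 and 201 in Combo200, so no fold against Ctrl or Oxali is given; its linear excess was 8.10 CPM (SE 0.57).

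**Figure D3:**
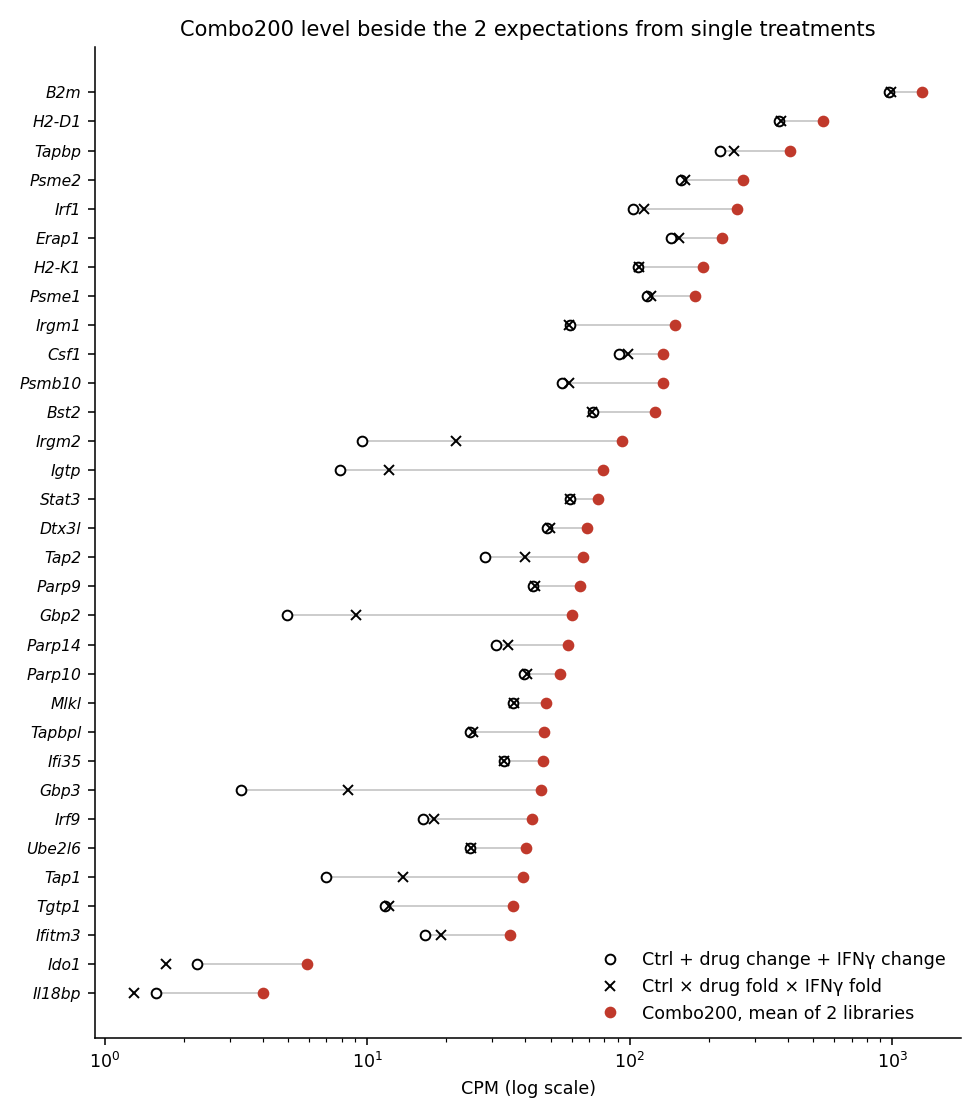
Mean CPM in Combo200 (red) beside the level expected from the single treatments if changes in CPM added (open circles) or if folds multiplied (crosses), on a log axis, for 32 of the 33 listed genes called higher. Red points lie to the right of both expectations in every row, from Il18bp (4.02 CPM) to B2m (1292 CPM).

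Other listed genes gave fewer calls. Among PARP family genes and partners 4 of 9 were called: Parp14 (0.75, SE 0.10), Parp9 (0.57, SE 0.07), its partner Dtx3l (0.47, SE 0.08) and Parp10 (0.42, SE 0.10). The call of Parp10 rested near the threshold (adjusted p = 0.0453) and was lost under 13 of 18 alternatives, among them every other scaling, the stricter filter, DESeq2, each library of Ctrl, IFN200 and Combo200 left out and Oxali replicate 2, and that of Dtx3l was lost without Ctrl replicate 1. Of 18 antiviral genes 3 were called, Bst2 (tetherin), Ifitm3 and Ifi35, with interactions of 0.80, 0.88 and 0.49, and Ifi35 lost its call without Ctrl replicate 1. Bst2 was at 67.9 and 65.5 CPM in Ctrl, 73.4 and 78.7 in IFN200, 63.5 and 62.1 in Oxali, and 120 and 129 in Combo200; Oxali lay below Ctrl, although that difference was not called, and the combination above all.

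Ido1, an enzyme that degrades tryptophan and restrains T cells, was the only checkpoint gene called of 7. It was at 3.67 and 3.598 CPM in Ctrl, 4.64 and 4.37 in IFN200, 1.52 and 1.24 in Oxali, and 5.84 and 5.95 in Combo200. Oxali lowered it, and with IFNγ present it stood above the untreated level; the interaction was 1.78 (SE 0.22, adjusted p = 0.000133). Il18bp, which binds and blocks interleukin 18, had the same order of groups, at 1.39 and 2.03 CPM in Ctrl, 2.17 and 2.47 in IFN200, 1.24 and 0.67 in Oxali, and 3.71 and 4.33 in Combo200. Its interaction of 1.63 (SE 0.35) was lost without Ctrl replicate 2, IFN200 replicate 1, Oxali replicate 2 or Combo200 replicate 3. Cd274, which encodes PD-L1, was at 1.84 and 1.42 CPM in Ctrl, 1.48 and 1.37 in IFN200, 3.64 and 3.82 in Oxali, and 8.20 and 8.35 in Combo200. Its interaction of 1.33 (SE 0.32) had an adjusted p of 0.0628, and its linear excess of 4.75 CPM (SE 0.67) was called.

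Among 12 chemokine and cytokine genes, Il18bp and Csf1 were called. Csf1, a growth factor of macrophages, was at 15.8 and 16.6 CPM in Ctrl, 17.7 and 17.9 in IFN200, 86.1 and 92.2 in Oxali, and 136 and 132 in Combo200, so that Oxali made most of the change; the interaction was 0.45 (SE 0.09), and it was lost without either Ctrl library or IFN200 replicate 1. Mlkl, the executor of necroptosis, was the only cell death gene called of 14 (0.41, SE 0.08), and the call was lost without either Ctrl library, either Combo200 library, IFN200 replicate 1 or Oxali replicate 1, and with DESeq2 (adjusted p = 0.0800). Ube2l6, which conjugates ISG15, was called among 8 ubiquitin-like and TRIM genes (0.69, SE 0.10). No gene was called on the log2 scale among 5 class II genes, 7 nucleic acid sensors, 13 NF-κB genes, 5 complement genes, 18 p53 targets or 20 MYC targets. That scale called 0.698% of all genes, so lists of this size may hold no call. A linear excess was called in 1 class II gene, 2 nucleic acid sensors, 2 NF-κB genes and 3 complement genes. It was called in no p53 or MYC target and in 1.28% of all genes. The median log2 interaction of the complement genes was 1.23, with 2 of them at 3 counts or fewer in Ctrl. The median interaction of the p53 targets was -0.02 and that of the MYC targets 0.00, against 0.01 over all genes. Cdkn1a and Mdm2, which p53 induces, gave intervals of -0.25 to 0.09 and 0.02 to 0.30. Nfkb1 gave 0.00 (-0.11 to 0.11).

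**Figure D4:**
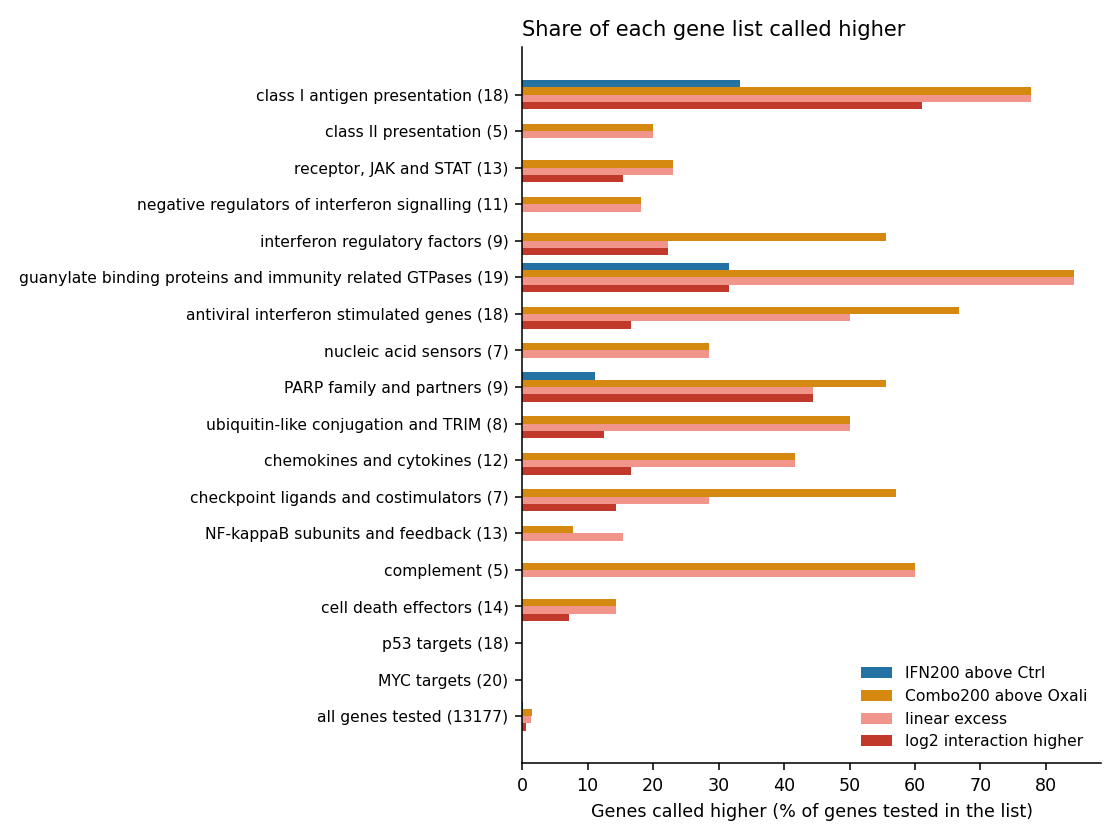
Share of the tested genes of each list (number in brackets) called higher at an adjusted p under 0.05 in IFN200 against Ctrl, in Combo200 against Oxali, on the linear scale and in the log2 interaction. Class I presentation reaches 61.1% in the log2 interaction (11 of 18), and the bars of p53 and MYC targets are at 0.

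Outside the lists, 41 genes were called higher. The lists are a selection, and being outside them does not mark a gene as unrelated to IFNγ. None of the 41 was called in IFN200 against Ctrl, which called only 0.114% of all genes. In 26 of them both IFN200 libraries lay below both Ctrl libraries, as did 2529 of all 13177 genes. Their median change made by IFNγ was -0.11 without drug and 0.26 with drug. Of the 41, 27 were called higher in Combo200 than in Oxali, where 1.58% of all genes were. Oxali lowered 23 of them and raised 9, where 32.8% and 34.8% of all genes were called lower and higher.

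Gm12250 had the largest fitted interaction of the 92 genes called (4.26, SE 0.73, edgeR adjusted p = 0.00502), but on few reads. It had 9 and 4 reads in Ctrl, 8 and 8 in IFN200, 3 and 2 in Oxali, and 58 and 58 in Combo200. Its promoter window held both the GAS form and the ISRE core. With Oxali set to 3 reads per library the log2 interaction was 4.09, and the call was lost without Ctrl replicate 1. Mpeg1, a pore-forming protein best known from macrophages, was at 3.12 and 2.99 CPM in Ctrl, 4.56 and 5.57 in IFN200, 2.49 and 2.48 in Oxali, and 14.3 and 19.2 in Combo200, an interaction of 2.03 (SE 0.27). The summed level of the 8 myeloid markers was 2.37 and 1.88 CPM in Combo200, 1.92 and 1.71 in Oxali, 0.91 and 0.68 in IFN200 and 0.53 and 1.31 in Ctrl, with Adgre1, Itgam and Tyrobp at 0 in Combo200; their part in the Mpeg1 result was not tested. Ly6a, which encodes the surface protein Sca-1, fell with Oxali from 132 and 123 CPM to 24.1 and 23.7, was at 135 and 137 in IFN200, and stood at 48.5 and 49.7 in Combo200. Multiplication gave 25.5 CPM and addition 32.2 CPM, so that the log2 interaction of 0.95 (SE 0.08, adjusted p = 3.74e-07) was called and the linear excess of 16.9 CPM (SE 4.55, adjusted p = 0.081) was not.

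Further genes among the 41 were Slc2a6, a sugar transporter (1.199, SE 0.24), Xdh, which makes uric acid (1.03, SE 0.22), Rnf31, a ubiquitin ligase of NF-κB signalling (0.53, SE 0.09), and Wars, the tryptophan tRNA synthetase (0.26, SE 0.06). Each was higher in both Combo200 libraries than in both Oxali libraries. Slc2a6 lost its call without either Ctrl library or IFN200 replicate 1, Rnf31 without Ctrl replicate 2, and Xdh and Wars without either Ctrl library, either Combo200 library, IFN200 replicate 1 or Oxali replicate 2. Wars also lost it with upper-quartile scaling (edgeR adjusted p = 0.0700). Vwa5a (0.59, SE 0.08) kept its call under all 18 alternatives, as did Mpeg1, Ly6a, Ly6c1, Psmb4 and 1110038F14Rik.

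Another share of the 41 genes belonged to families of abundant housekeeping transcripts, which were named after their values were seen. They held 8 of 94 cytosolic ribosomal protein genes, 3 of 86 nuclear genes of the respiratory chain and ATP synthase (Atp5e, Cox5a and Cox8a) and the proteasome subunits Psma5 and Psmb4. Rpl13 was at 453 and 449 CPM in Ctrl, 408 and 432 in IFN200, 266 and 241 in Oxali, and 296 and 286 in Combo200. IFNγ went with a lower level without drug and a higher level with drug, an interaction of 0.30 (SE 0.06) that was lost without either Ctrl library, either Combo200 library, IFN200 replicate 1 or Oxali replicate 2. Psmb4 was at 300.3 and 293 CPM in Ctrl, 251 and 266 in IFN200, 183 and 164 in Oxali, and 204 and 214 in Combo200, with the same order and an interaction of 0.47 (SE 0.07). Ribosomal protein genes share reads with many pseudogenes, so their values are uncertain. The ferritin chains, which store iron, were also called. Fth1 was at 1374 and 1395 CPM in Ctrl, 1230 and 1295 in IFN200, 1353 and 1225 in Oxali, and 1413 and 1378 in Combo200, with an interaction of 0.25 (SE 0.06). The edgeR call of Fth1 held under 8 of 18 alternatives. It was lost with RLE size factors (edgeR adjusted p = 0.0527), with upper-quartile scaling (0.0676) and with a filter at a mean of 50 counts (0.0640). The call was also lost with a replicate block, and without either Ctrl library, either Combo200 library, IFN200 replicate 1 or Oxali replicate 2. Ftl1 gave 0.37 (SE 0.07) and lost its call without Ctrl replicate 2, IFN200 replicate 1 or Combo200 replicate 3.

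Called genes were shorter than all genes, most of all the 41. The median exon length was 1934 bases in the 41 genes, against 4094 in all genes. It was 3205 in the 33 listed genes and 3108 in the 18 genes called lower. With genes in 10 bins of length, the median interaction went from 0.05 in the shortest bin to -0.04 in the longest. Bins 1 and 2, the shortest, each held 4 of the genes called lower. With offsets that remove the length trend all 92 calls held, and 73 genes outside the lists were called.

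Of the 18 genes called lower, all had a positive change with IFNγ alone and a negative one with drug. Malat1, a nuclear long noncoding RNA, was at 281 and 207 CPM in Ctrl, 311 and 308 in IFN200, 193 and 192 in Oxali, and 121 and 88.9 in Combo200. IFN200 lay above the rest and Combo200 below all, and the interaction of -1.22 (SE 0.18, adjusted p = 0.000676) was called under all 18 alternatives, alone among the 18. The splicing genes Luc7l2, Luc7l3 and Prpf39 were at -0.36 (SE 0.07), -0.31 (SE 0.06) and -0.36 (SE 0.08), and each lost its call without Ctrl replicate 2, IFN200 replicate 1, Oxali replicate 2 or Combo200 replicate 3, among others. Spaca6 (-0.84, SE 0.16) lost its call without Ctrl replicate 2, Oxali replicate 2 or Combo200 replicate 3. The others were Gm49759, Gm7964, Rpl3-ps1, Slc9a5, Snhg17, Tspan1 and Zc3h7a, with interactions of -0.63 to -0.30.

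Among the 18 were 6 of the 11 mitochondrially encoded genes tested, all subunits of the respiratory chain: mt-Co1, mt-Cytb, mt-Nd1, mt-Nd4, mt-Nd5 and mt-Nd6. The level of mt-Co1 was 2460 and 2442 CPM in Ctrl, 3163 and 3126 in IFN200, 2109 and 2556 in Oxali, and 2157 and 2028 in Combo200. It was the only gene of the 18 called higher with IFNγ alone (0.36, adjusted p = 0.023), whereas Combo200 and Oxali overlapped, so the interaction of -0.52 (SE 0.09) came mostly from the cells without drug. The call of mt-Co1 was lost without Ctrl replicate 2 or Combo200 replicate 3, as were those of the other 5, which were also lost without Ctrl replicate 1. DESeq2 called none of the 6 (adjusted p of 0.0534 for mt-Co1 to 0.161 for mt-Nd5). The ends of mt-Nd5 and mt-Nd6 overlap on opposite strands. The 11 genes together were at 8019 and 8007 CPM in Ctrl, 10056 and 10124 in IFN200, 7513 and 8709 in Oxali, and 7189 and 6789 in Combo200. The share of all reads from these genes moved likewise, 0.963% and 0.972% in IFN200 against 0.769% in both Ctrl libraries. Without the mitochondrially encoded genes in the library totals, all 86 other calls held.

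**Figure D5:**
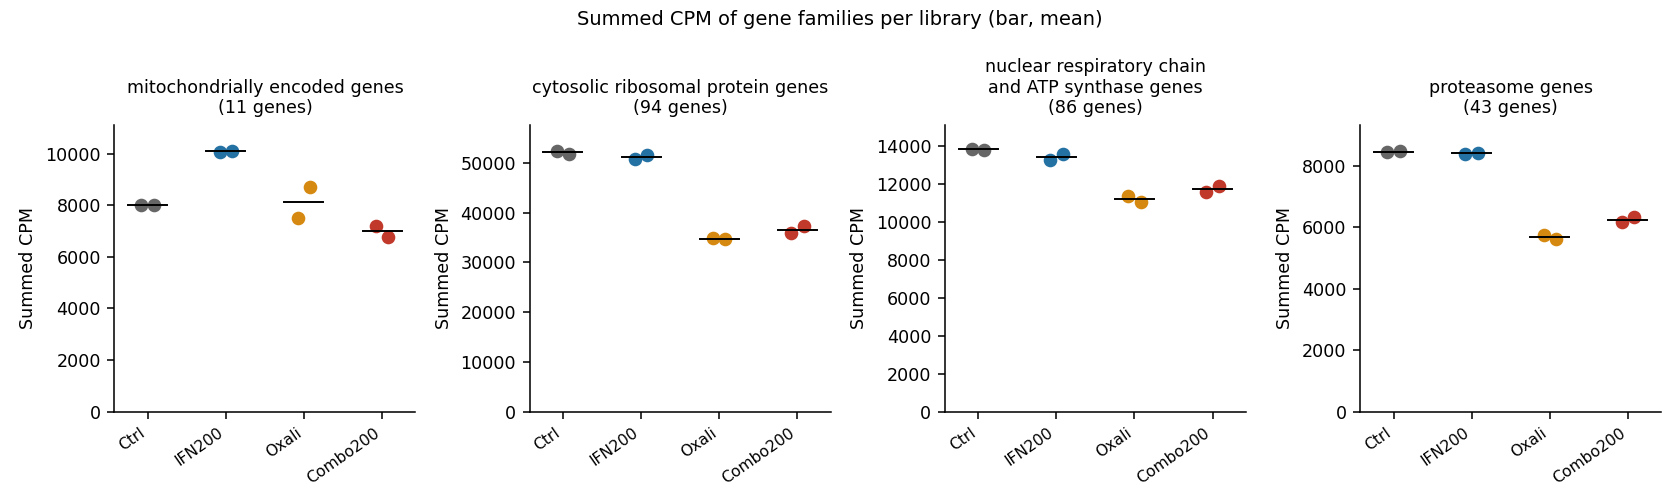
Summed CPM per library (points, with the group mean as a bar) of 4 gene families named after values were seen. The mitochondrially encoded genes lie highest in IFN200 (10056 and 10124 CPM), and the other 3 families lie lower in Oxali and Combo200 than in Ctrl.

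The scale decided part of the answer. On the linear scale the excess of Combo200 over the sum of both changes was called for 193 genes, 1.46% of those tested, with 169 (1.28%) above and 24 (0.182%) below. Of the 74 genes called higher on the log2 scale, 70 also had a linear excess, and the exceptions were Ly6a, Ly6c1, Psma5 and Rps14, all lowered by Oxali. A further 99 genes had a linear excess only. In 91 of these the log2 interaction was above 0, with a median of 0.42, and 83 were called higher in Combo200 than in Oxali. Oxali alone was called higher in 74 of them and lower in 10, and IFNγ alone was called higher in 5. Over all genes Oxali called 34.8% higher and 32.8% lower, and IFNγ called 0.114% higher. Changes that multiply exceed changes that add only where both agents move a gene in the same direction. No gene was called in opposite directions on the scales. The 8 largest excesses called were those of B2m (325 CPM), Fth1 (229), Tapbp (188), H2-D1 (174), Irf1 (153), Grn (151), Psme2 (113) and Irgm1 (89.6), and Grn, the granulin precursor, was the only one of them without a called log2 interaction (0.18, adjusted p = 0.199). The 8 largest shortfalls were those of mt-Co1 (-934 CPM), mt-Cytb (-637), mt-Nd1 (-470), mt-Nd5 (-393), mt-Nd2 (-188), mt-Nd4 (-164), Malat1 (-153) and mt-Nd6 (-113). The 169 genes fell to 87 without Combo200 replicate 3, and the 24 fell to 8, 12 and 4 without Ctrl replicate 2, IFN200 replicate 1 and Combo200 replicate 3.

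Lgals3bp, a secreted glycoprotein, lay between the expectations: Combo200 was at 24.9 and 24.7 CPM, with 14.8 CPM by addition and 29.1 CPM by multiplication. It had a linear excess of 10.1 CPM (SE 1.07) and a log2 interaction of -0.22 (95% interval -0.60 to 0.16). C3, the central complement component, was raised by Oxali from 2.45 and 2.94 CPM to 43.7 and 43.1 and stood at 63.9 and 59.6 CPM in Combo200, against 2.73 and 3.89 in IFN200. Its linear excess was 17.7 CPM (SE 2.45), and its log2 interaction of 0.22 (SE 0.22) was not called. Iigp1, an immunity related GTPase, had 0 and 2 reads in Ctrl, 5 and 4 in IFN200, 2 and 3 in Oxali, and 416 and 480 in Combo200, so its excess of 18.1 CPM (SE 0.70) is given without a fold. Ccl9, a chemokine, fell short of addition by a small amount: Oxali raised it to 50.5 and 53.7 CPM, and Combo200 was at 43.8 and 42.8 (excess -8.73 CPM, SE 1.96).

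IFNγ alone at this dose was called for 15 genes, all higher (0.114%; 801 genes had an unadjusted p under 0.05). Of these 15, 10 had a called interaction (9 higher, and mt-Co1 lower) and 14 had a linear excess. The 5 without a called interaction were Gbp7, Lgals3bp, Psmb8, Psmb9 and Tgtp2. Gbp7 was near the threshold, with an interaction of 1.60 (SE 0.38, adjusted p = 0.0559) and a linear excess of 24.96 CPM (SE 1.03). Of the 208 genes called higher in Combo200 than in Oxali, 60 had a called interaction and 198 had an interaction above 0. Leaving out Ctrl replicate 1, Ctrl replicate 2 or IFN200 replicate 1 cut the 15 genes to 5, 3 and 4, and leaving out Oxali replicate 2 or Combo200 replicate 3 cut the 208 genes to 132 and 127.

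The 92 calls depended on single libraries to different degrees in the 3 groups of genes. With 1 of the 8 libraries left out, 26 to 32 of the 33 listed genes, 9 to 38 of the 41 other genes called higher and 1 to 16 of the 18 genes called lower were still called. No interaction changed sign. The count of genes called higher fell to 36 without Ctrl replicate 1 or IFN200 replicate 1, to 40 without Ctrl replicate 2 or Combo200 replicate 3 and to 43 without Oxali replicate 2, and rose to 125 without Oxali replicate 1. The count of genes called lower was 4 without Ctrl replicate 1, 1 without Ctrl replicate 2 or Combo200 replicate 3, 7 without IFN200 replicate 1, 12 without Oxali replicate 2 and 35 without Oxali replicate 1. The Oxali libraries differed most from each other, with a chi-square per degree of freedom of 9.15 against 1.71 to 2.56 in the other 3 groups. Just inside the threshold stood Idnk, Mrps26, Zfp771 and Rpl3-ps1 (adjusted p of 0.0453 to 0.0474), and just outside stood Mitd1, Rnf19b, Neat1 and C1ra (0.0511 each).

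At the higher dose of 2000 pg, in groups that share the Ctrl and Oxali libraries, the interaction was called for 359 genes (2.72%; 2.12% higher and 0.6% lower), and 28 of the 33 listed genes, 17 of the 41 others and 1 of the 18 lower genes were among them. Whether the interaction differed between doses was tested directly, in a contrast from which Ctrl and Oxali cancel but which shares the IFN200 and Combo200 libraries with the interaction that chose the genes. In the IFN2000 libraries the log2 change from Ctrl had a Spearman correlation of -0.32 and -0.17 with transcript length. In the 8 libraries of the 200 pg interaction this correlation ran from -0.02 to 0.16. The difference between doses was called for 868 genes (6.59%, with 3.4% higher and 3.19% lower). With length offsets 278 genes were higher and 577 lower in it, against 448 and 420 in the main fit. The part of transcript length in the dose difference of single genes was not tested. Among the 92 genes the main fit called the difference for 57. The interaction was smaller at the higher dose in 34 genes, among them Irgm2 (from 2.10 to 0.19), Igtp (2.703 to 0.85), Tap1 (1.52 to 0.21), Psmb10 (1.18 to 0.58) and Irf1 (1.17 to 0.88). It was higher on the signed scale in 23, among them Stat3 (0.36 to 0.76), B2m (0.39 to 0.76), Parp14 (0.75 to 1.19), Mpeg1 (2.03 to 2.68) and the 6 mitochondrially encoded genes, which went from below to above 0 (mt-Co1 from -0.52 to 0.26, the latter not called). The count of genes with a dose difference depended on single libraries: 448 were higher and 420 lower in all, but 95 and 66 without IFN200 replicate 1, 122 and 83 without Combo200 replicate 3, 223 and 188 without Combo200 replicate 2, 156 and 148 without IFN2000 replicate 2, 166 and 124 without Combo2000 replicate 2, and 944 and 947 without IFN2000 replicate 3.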

How the data were processed

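Poly(A) RNA of Myc-CaP cells was sequenced from stranded libraries. The deposited values are raw read counts per gene, which the authors made by aligning reads with STAR 2.7.3a to GRCm38. The submitters' processing notes also name RSEM 1.3.0, while the study's methods name featureCounts, and the strand setting of the counting is not given in the sources used here. Of 55216 genes, 28300 had no read, and 13177 passed edgeR's expression filter (minimum count 10, minimum total 15).

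Counts of all 12 libraries in 6 groups were scaled by TMM and fitted with edgeR 4.0.16 (R 4.3.3, quasi-likelihood, prior count 0.125), so that all groups share the estimate of spread. All log2 changes, their SEs, 95% intervals and Benjamini-Hochberg adjusted p-values come from this fit, two-sided, with a threshold of 0.05. The linear excess was Combo200 minus Oxali minus IFN200 plus Ctrl in fitted CPM, with a delta-method SE and the moderated degrees of freedom of the fit. The scripts were tested on simulated data. Intervals and the 3-count floor cover no error beyond that of these libraries.

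The members, gene lists and naming rule were chosen with earlier results of these data known. Named were Tap1, H2-K1, Irf1 and Stat3, called members of the lists, the 15 largest positive interactions and all negative ones at a mean of at least 1 log2 CPM, and the 8 largest linear excesses and shortfalls. Other genes named, and the families, were chosen after their values were seen. Same-numbered libraries did not deviate together, so no replicate block was used in the main fit. By the titles Ctrl, IFN200 and Oxali hold replicates 1 and 2, and Combo200 and the 2000 pg groups hold replicates 2 and 3. The labels do not say what the numbers stand for. As Ctrl, IFN200 and Oxali lack a replicate 3, the check compares that number only between Combo200 and the 2000 pg groups. Alternatives were other scalings and filters, the 4 groups alone, a replicate block, each library left out, length offsets, DESeq2 1.42.0 (tested for the 200 pg interaction only) and, added after seeing the data, the agent labels and totals without mitochondrially encoded genes. A few items are not reported here.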

Additional observations from a re-analysis of the deposited data

Results flagged for a closer look

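The interaction of Oxali with IFNγ differed between the doses of 200 and 2000 pg by a test of the difference itself in edgeR, in which 448 genes were higher and 420 lower at 2000 pg. Of the 92 genes called at 200 pg, 34 were lower and 23 higher at 2000 pg. This test shares the IFN200 and Combo200 libraries with the interaction that chose these genes. In the IFN2000 libraries the log2 change from Ctrl correlated with transcript length at -0.32 and -0.17. With length offsets 278 genes were higher and 577 lower in the dose difference. Without IFN200 replicate 1 the counts over all genes were 95 and 66.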

How the results depend on the processing

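No direction of the 92 interactions changed under other scalings, filters, length offsets, DESeq2 or the removal of 1 library, whereas the number of calls did. Upper-quartile scaling left 25 of the genes outside the lists called. Without a filter on low counts 189 genes were called higher and 73 lower (147 outside the lists), 276 and 74 on the linear scale, 63 and 39 for IFNγ alone, 74 lower in Combo200 than in Oxali and 733 higher in the dose difference. In a fit of the 4 groups alone the counts were 132 higher and 44 lower (96 outside the lists), with 50 linear shortfalls, 2 genes lower with IFNγ alone and 60 lower in Combo200 than in Oxali. Same-numbered libraries correlated at -0.15 to 0.06, which does not show pairing, and Ctrl, IFN200 and Oxali lack a replicate 3. With a replicate block 38 genes were higher and 10 lower (10 outside the lists), 83 and 11 on the linear scale, 1 lower with IFNγ alone, 135 higher and 7 lower in Combo200 than in Oxali, and 139 and 97 in the dose difference. Length offsets gave 73 genes outside the lists, 4 lower with IFNγ alone and 278 higher in the dose difference. The block kept 46 of the 92 calls. Among those it lost were Tap2, Il18bp, Csf1, Mlkl, Rnf31, Xdh, Wars, Rpl13, Fth1, Ftl1, Prpf39 and Spaca6. DESeq2 called 9 lower and kept 69 of the 92 calls. If the agent labels were right instead of the titles, 4031 genes would be called higher and 3825 lower, and 28 of the 92 would reverse. Leaving out 1 library gave 36 to 125 higher, 1 to 35 lower and 9 to 91 outside the lists, 87 to 231 and 4 to 36 on the linear scale, 3 to 14 higher and 0 to 5 lower with IFNγ alone, 127 to 183 higher and 1 to 34 lower in Combo200 than in Oxali, and 95 to 944 higher and 66 to 947 lower in the dose difference. A group left with 1 library was assumed to vary like the others, and the causes were not tested. Genes with few reads, such as Psmb9 and Ifngr2, had intervals too wide to exclude a sizeable interaction.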
